A study of Mus musculus with 12 samples.

Results

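Described here are 10 mouse genes of glucose uptake, glucose phosphorylation, lactate production and the response to low oxygen: Slc2a1, Slc2a4, Hk1, Hk2, Pfkfb1, Pfkfb3, Ldha, Ldhb, Pdk4 and Vegfa. They were taken as a named list, and each was read from the probe set with the highest mean over all arrays among those annotated with that gene alone. By that rule 9 of the 10 were measured, out of 19937 genes on the array, and Pfkfb1 is not analysed here. The study follows a muscle-derived tumour driven by YAP1, the transcriptional effector of the Hippo pathway, in the days after the transgene's inducer is withdrawn. Gene expression was measured on 12 one-colour arrays, 3 in each of 4 groups.

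All groups carried Myf5Cre, which is active in the myogenic lineage, with R26-LSL-rtTA, which Cre unlocks, and Col1a-Teto-hYAP1 S127A, a doxycycline-inducible human YAP1 with the inhibitory phosphorylation site S127A mutated. The strain was C57BL/6. Donor mice were given doxycycline for 4 weeks, and their interstitial muscle cells were grafted into the gastrocnemius of NOD/SCID hosts that had received doxycycline. Tumours were sampled at day 0 of withdrawal (TUM), 3 days after it (OFF3) and 6 days after it (OFF6). Hindlimb muscle of uninduced mice with the same alleles is the control (CTL), so tumour and control differ in host, site and induction together. Ages are not in the labels. NOD/SCID hosts lack mature T and B cells but keep myeloid, endothelial and stromal cells, and the grafts lay in host muscle. A tumour sample can therefore hold host cells, host muscle fibres among them. The share of host muscle in each tumour sample was not tested. The labels do not state that replicates came from separate animals, so the tests see the spread among these arrays and may not see that among animals. In such bulk samples fewer cells of a type and less RNA per cell cannot be told apart.

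Glucose enters muscle through GLUT1, encoded by Slc2a1 and present at the surface at rest, and through GLUT4, encoded by Slc2a4, which insulin and contraction bring to the surface of adult fibres. Hexokinases trap it as glucose 6-phosphate, and enzymes of the Pfkfb family set the level of fructose 2,6-bisphosphate that activates phosphofructokinase. Lactate dehydrogenase interconverts pyruvate and lactate, and pyruvate dehydrogenase kinases restrain the oxidation of pyruvate in the mitochondrion. Under low oxygen the factor HIF-1 binds a short DNA core, ACGTG, and activates Slc2a1, Hk2, Pfkfb3, Ldha and Vegfa among many genes.

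The stretches just before 5 of these genes are shown because they are textbook HIF-1 targets and yet moved in different directions in the arrays. Each is the 250 bases before an annotated start, 5′ to 3′ on the gene's own strand, from RefSeq's annotation of GRCm38.p6. They lie at chr4:119108495-119108744 (plus strand) for Slc2a1, chr6:82774455-82774704 (minus strand) for Hk2, chr2:11502091-11502340 (minus strand) for the second annotated start of Pfkfb3, chr7:46845554-46845803 (plus strand) for Ldha and chr17:46032378-46032627 (minus strand) for Vegfa. Capitals mark ACGTG or its reverse complement CACGT. Where both overlap, the capitals read CACGTG.
Slc2a1: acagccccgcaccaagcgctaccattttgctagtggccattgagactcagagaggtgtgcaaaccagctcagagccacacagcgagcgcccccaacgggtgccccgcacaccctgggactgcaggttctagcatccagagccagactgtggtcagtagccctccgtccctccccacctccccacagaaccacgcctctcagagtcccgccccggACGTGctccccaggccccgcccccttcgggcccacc
Hk2: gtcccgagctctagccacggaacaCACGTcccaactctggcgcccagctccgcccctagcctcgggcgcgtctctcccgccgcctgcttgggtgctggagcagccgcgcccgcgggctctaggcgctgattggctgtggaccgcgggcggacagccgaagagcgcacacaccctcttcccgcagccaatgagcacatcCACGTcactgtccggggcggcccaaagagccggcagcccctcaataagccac
Pfkfb3: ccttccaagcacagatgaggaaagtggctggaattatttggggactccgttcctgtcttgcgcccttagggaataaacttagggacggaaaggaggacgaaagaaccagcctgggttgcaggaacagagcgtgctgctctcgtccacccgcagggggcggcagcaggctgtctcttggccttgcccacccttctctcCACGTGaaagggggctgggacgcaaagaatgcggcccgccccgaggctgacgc
Ldha: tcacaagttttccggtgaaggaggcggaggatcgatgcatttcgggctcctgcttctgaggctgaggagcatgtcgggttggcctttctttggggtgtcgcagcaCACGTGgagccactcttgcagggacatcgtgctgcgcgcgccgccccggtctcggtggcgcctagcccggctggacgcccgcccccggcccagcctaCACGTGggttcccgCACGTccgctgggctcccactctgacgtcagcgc
Vegfa: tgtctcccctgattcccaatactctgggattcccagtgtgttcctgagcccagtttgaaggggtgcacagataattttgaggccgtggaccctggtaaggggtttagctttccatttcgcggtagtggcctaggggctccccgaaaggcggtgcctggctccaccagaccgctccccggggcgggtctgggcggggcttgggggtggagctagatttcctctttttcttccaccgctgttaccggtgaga

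The Ldha stretch held 3 such places, the Hk2 stretch 2, the Slc2a1 and Pfkfb3 stretches 1 each, and the Vegfa stretch 0. The place nearest the start lay 34 bases before it in Ldha, 36 in Slc2a1, 52 in Hk2 and 53 in Pfkfb3. Of the 10 genes 9 had promoter entries, with 16 windows of 250 bases before and 50 after a start. ACGTG on either strand was in 7 of these windows, against 19.6% of all 32851 windows. These 7 belonged to 6 genes (Slc2a1, Hk1, Hk2, Pfkfb3, Ldha and Vegfa, the last at its other start). Of all 27025 genes with windows, 21.8% had ACGTG. The members were listed in part for their response to low oxygen, which can by itself raise their share, so no conclusion is drawn from it. GGAATG, the core bound by the TEAD partners of YAP1, was in 0 of the 16 windows on either strand, against 14.7% of all windows. These are matches of letters, and binding was not measured. Only these letters within these windows were searched, so a stretch with 0 matches does not mean that its gene lacks a HIF-1 site.

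The values are log2 of the probe set intensity, and a difference of 1 is a doubling. A gene was called changed where limma's test over all 12 arrays gave an adjusted p under 0.05, with Benjamini and Hochberg's adjustment over all 19937 genes. Differences are given ± their standard error with n = 3 arrays per group. Groups whose arrays do not overlap were common. Over all genes, 82.7% had no overlap between TUM and CTL, 72.4% between OFF3 and CTL, and 68.5% between OFF6 and CTL. The share was 44.8% for OFF3 and TUM, 48.5% for OFF6 and TUM, and 21.2% for OFF6 and OFF3. Median intensity per array ran from 86.74 to 93.05. Yap1, read by probes for the mouse gene, averaged 9.57 in OFF3 and 9.61 in OFF6, against 9.86 in TUM, and all of these differences were called (adjusted p = 0.00923 and 0.0203). TUM lay above CTL (9.56) by 0.29 ± 0.07 (adjusted p = 0.00283). How far these probes detect the human transgene was not tested. Replicate 2 of OFF6 stood apart: its mean correlation was 0.995 with the OFF3 arrays and 0.991 with the other OFF6 arrays. Results that set OFF6 against OFF3 are therefore given with and without it.

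Summed intensity of 10 adult fibre markers ran from 43160 to 55180 in OFF3 and from 45310 to 46690 in OFF6, against 24560 to 26380 in TUM, while CTL had 84240 to 86970. All 10 fibre markers were lower in TUM than in CTL, and 9 of 10 rose in OFF3 (not Myh2) and 9 of 10 in OFF6 (not Pvalb). The 7 measured proliferation markers summed to between 1878 and 2832 in OFF3 and between 2185 and 2755 in OFF6, against 9577 to 9884 in TUM. All 7 fell at both times. Macrophage markers (8 genes) summed to between 16700 and 17040 in TUM, against 2990 to 3314 in CTL, and to 20010 to 21180 in OFF3. In OFF6 they summed to 13460, 20160 and 13800 (replicates 1 to 3), so only replicate 2 lay above TUM. Adipocyte markers (6 measured) were at 665.4 to 741 in TUM, against 3594 to 3632 in CTL, and 0 of 6 changed in OFF3 or OFF6. Fibroblast markers (8 genes) summed to between 23760 and 24600 in OFF3, and to 18080, 23550 and 17090 in OFF6 (replicates 1 to 3). TUM had 14910 to 15470 and CTL 11380 to 11860. In OFF3 7 of the 8 markers rose and 0 fell, and in OFF6 6 rose and 1 fell. Lum, a matrix proteoglycan, was up by 2.26 and 1.75 (adjusted p = 3.17e-05 and 0.000212). Of 2 measured erythroid markers both were lower in TUM than in CTL, and 0 changed in OFF3 or OFF6. The neutrophil markers S100a8, S100a9, Ly6g, Cxcr2, Mpo and Retnlg averaged between 4.4 and 5.7 in every group. Only Csf3r of the 7 neutrophil markers was higher in TUM than in CTL, and 4 were lower. Over all genes 76.2% were called in TUM against CTL, 29.4% in OFF3 against TUM and 31.5% in OFF6 against TUM. The part these cells play in the results below was not tested.

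In TUM against CTL all 9 measured genes differed, 2 higher (Slc2a1 and Hk1) and 7 lower, where 76.2% of all genes were called, 30.3% higher and 45.9% lower. The 9 differences had a median of -1.63, beside -0.15 over all genes. In OFF3 against TUM 5 of 9 were called, 2 higher and 3 lower, beside 29.4% of all genes (13.4% higher, 16% lower). Their median difference was -0.04, beside 0.02 over all genes. In OFF6 against TUM 7 of 9 were called, 4 higher and 3 lower, beside 31.5% of all genes (14.9% higher, 16.6% lower), with a median of 0.10 beside 0.05.

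**Figure D1:**
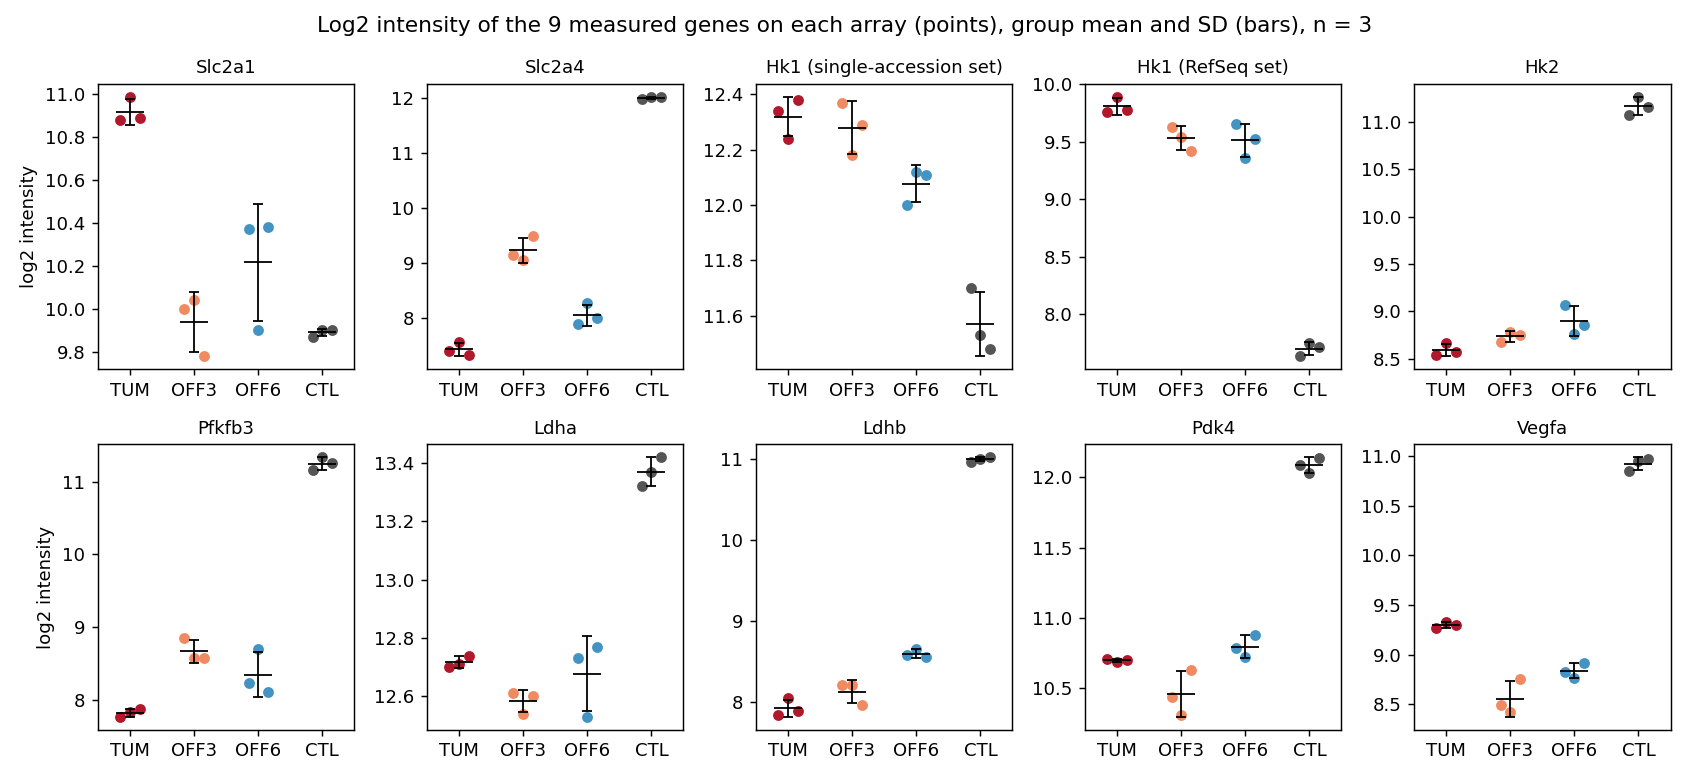
Log2 intensity of each measured gene on every array (points), with the group mean and SD (bars, n = 3), for TUM, OFF3, OFF6 and CTL from left to right. Hk1 has a panel for each of its probe sets. Slc2a1 and Hk1 are highest in TUM, and the other genes are highest in CTL. Each panel has its own axis, so levels are not comparable between panels.

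The 2 glucose transporters moved in opposite directions in OFF3 and OFF6 against TUM, and differed in opposite directions in TUM against CTL. Slc2a1 (GLUT1, chr4:119108745-119137330) read 10.88, 10.99 and 10.89 in TUM, 10, 10.04 and 9.78 in OFF3, 10.37, 9.90 and 10.38 in OFF6, and 9.87, 9.90 and 9.90 in CTL. All TUM arrays lay above every other array, and the OFF3 arrays lay on both sides of CTL. Slc2a1 was 1.98-fold lower in OFF3 than in TUM (-0.98 ± 0.11, adjusted p = 3.69e-05) and 1.63-fold lower in OFF6 than in TUM (-0.71 ± 0.11, adjusted p = 0.000436). TUM was 2.05-fold above CTL (1.03 ± 0.11, adjusted p = 3.59e-06).

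After 3 days the fall of Slc2a1 equalled 95% of the gap between TUM and CTL, and the OFF3 mean differed from CTL by 0.05 (95% interval -0.20 to 0.30, adjusted p = 0.695). After 6 days it equalled 68.4% of that gap. OFF6 stood 0.33 ± 0.11 above CTL with adjusted p = 0.0253, but the arrays overlapped, and the call was lost without any 1 of the CTL arrays or OFF6 replicates 1 or 3 (adjusted p 0.0512 to 0.107). Between OFF6 and OFF3 the difference was 0.28 ± 0.11 (adjusted p = 0.159). Replicate 2 of OFF6, at 9.90, lay among the OFF3 values, and without it the difference was 0.43 (adjusted p = 0.00153).

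Slc2a4 (GLUT4, chr11:69942286-69948216) read 7.41, 7.57 and 7.33 in TUM, 9.15, 9.06 and 9.50 in OFF3, 7.89, 8.27 and 8 in OFF6, and 11.99, 12.02 and 12.03 in CTL. The 4 groups did not overlap, and every neighbouring pair in the order CTL, OFF3, OFF6, TUM differed by the test. For these pairs 72.4%, 21.2% and 48.5% of all genes had no overlap. TUM was 23.9-fold below CTL (-4.58 ± 0.12, adjusted p = 5.53e-12). OFF3 was 3.49-fold above TUM (1.80 ± 0.12, adjusted p = 3.47e-07), and OFF6 was 1.54-fold above TUM (0.62 ± 0.12, adjusted p = 0.00136).

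The later time was the lower of the pair: Slc2a4 was 2.27-fold lower in OFF6 than in OFF3 (-1.18 ± 0.12, adjusted p = 0.000265), and all 3 OFF6 arrays lay below all 3 OFF3 arrays. Without OFF6 replicate 2 the difference was -1.29 (adjusted p = 7.35e-06). Its rise covered 39.4% of the distance from TUM to CTL in OFF3 and 13.5% in OFF6. Of 10 fibre markers 2 were lower in OFF6 than in OFF3, Pvalb (-1.84 ± 0.40, adjusted p = 0.0147), a calcium buffer of fast fibres, and the creatine kinase Ckm (-0.44 ± 0.10, adjusted p = 0.016). The fast myosins Myh1 (0.32 ± 0.08, adjusted p = 0.0314) and Myh2 (0.58 ± 0.12, adjusted p = 0.0135) were higher. Without OFF6 replicate 2 these markers differed by -2.48, -0.49, 0.36 and 0.59, in the same order, and all were called (adjusted p 1.72e-06 to 0.0124). The summed fibre markers ranged from 45310 to 46690 in OFF6 and from 43160 to 55180 in OFF3. The part of fibre content in the Slc2a4 difference was not tested.

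Within an array the difference Slc2a4 minus Slc2a1 removes anything that scales both. It was -0.85, -0.98 and -0.28 in OFF3 and -2.47, -1.63 and -2.38 in OFF6, against -3.47, -3.42 and -3.56 in TUM, and CTL arrays read 2.12, 2.12 and 2.13. The balance thus shifted towards Slc2a4 by 2.79 in OFF3 and by 1.33 in OFF6, a 6.9-fold and a 2.51-fold unequal change, and TUM minus CTL was -5.61, a 48.9-fold unequal change towards Slc2a1. In each comparison the groups did not overlap, which gave the smallest p an exact two-sided permutation test of 3 against 3 arrays allows, 0.1 (0.112 adjusted over the 9 pair tests run). That test cannot pass 0.05.

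Among all 11 glucose transporters of the Slc2a family, these 2 included, 3 rose and 3 fell in OFF3, with a median of 0.19, and 3 rose and 3 fell in OFF6, with a median of 0.03, beside 29.4% and 31.5% of all genes called. Slc2a5, a fructose transporter, fell most: it averaged 6.19 in OFF3 and 5.92 in OFF6, against 8.31 in TUM (-2.12 ± 0.11 and -2.39 ± 0.11, adjusted p = 5.16e-08 and 1.65e-08). CTL averaged 5.75, so TUM was 5.89-fold above it. Slc2a3, the neuronal-type GLUT3, fell by 0.23 in OFF3 and by 0.30 in OFF6 (adjusted p = 0.0238 and 0.00447). Slc2a6, a transporter of lysosomes and of macrophages, rose by 0.59 ± 0.17 in OFF3 and 0.89 ± 0.17 in OFF6 (adjusted p = 0.0195 and 0.00132). Slc2a13, the proton-coupled inositol carrier, rose by 0.46 and 0.39 (adjusted p = 0.00249 and 0.00631). Slc2a12, a further insulin-responsive transporter, was 6.56-fold lower in TUM than in CTL (adjusted p = 1.35e-10), and Slc2a8 was 1.93-fold lower (adjusted p = 1.21e-06).

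Of 15 measured genes that move GLUT4 vesicles or relay the insulin signal, 5 rose and 3 fell in OFF3, 6 rose and 4 fell in OFF6, and 4 were higher and 9 lower in TUM than in CTL, with medians of 0.13, 0.16 and -0.63. Over all genes 29.4%, 31.5% and 76.2% were called. Sort1, the sortilin that forms GLUT4 storage vesicles, rose by 1.18 ± 0.15 in OFF3 and 1.94 ± 0.15 in OFF6 (adjusted p = 7.37e-05 and 9.48e-07), and was higher in OFF6 than in OFF3 by 0.75 (adjusted p = 0.0108; 0.99 and 1.22e-06 without OFF6 replicate 2), the reverse of Slc2a4. Prkaa2, the muscle catalytic subunit of the energy sensor AMPK, rose by 1.16 and 1.2 (adjusted p = 1.07e-06 and 6.41e-07) and was 14.5-fold lower in TUM than in CTL. Tbc1d4, the Akt substrate that holds GLUT4 inside the cell, rose by 0.49 ± 0.07 in OFF3 and 0.45 ± 0.07 in OFF6 (adjusted p = 0.00015 and 0.000242). Akt2, the insulin-signalling kinase of muscle, rose by 0.79 ± 0.11 in OFF6 (adjusted p = 0.000113). Aspscr1, which tethers GLUT4 vesicles inside the cell, fell by 0.27 in OFF3 and 0.21 in OFF6 (adjusted p = 0.0153 and 0.0479). The GTPase Rac1 fell by 0.23 and 0.25 (adjusted p = 0.0245 and 0.0157). Prkaa1, the other AMPK catalytic subunit, and the kinase Akt1 were 2.31-fold and 1.81-fold higher in TUM than in CTL (adjusted p = 4.28e-08 and 2.9e-07). Irs2, an adaptor of the insulin receptor, fell by 0.58 and 1.13 (adjusted p = 0.000216 and 6.77e-07). The other adaptor, Irs1, was 4.18-fold higher in TUM than in CTL and fell by 0.44 in OFF6 (adjusted p = 0.00116). Klf15, a transcription factor that activates Slc2a4 in muscle, was 5.57-fold lower in TUM than in CTL (adjusted p = 1.06e-10).

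Hexokinase 2 is the insulin-regulated form of adult muscle. Hk2 (chr6:82725025-82774454) read 8.54, 8.66 and 8.57 in TUM, 8.67, 8.78 and 8.75 in OFF3, 9.07, 8.76 and 8.85 in OFF6, and 11.08, 11.27 and 11.16 in CTL. Every tumour array was far below every CTL array, and the OFF3 and OFF6 arrays lay just above those of TUM. TUM was 5.98-fold below CTL (-2.58 ± 0.08, adjusted p = 2.74e-11). OFF3 exceeded TUM by 0.15 ± 0.08 (adjusted p = 0.224), and OFF6 exceeded it by 0.30 ± 0.08 (adjusted p = 0.013), which is 11.8% of the distance to CTL. The OFF6 call was lost without TUM replicate 1 (adjusted p = 0.0563) or OFF6 replicate 1 (0.0599).

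Hexokinase 1, the form of most other tissues, had probe sets of uncertain identity. Of 17 probe sets annotated with Hk1, 15 also listed the ribosomal protein gene Rpl17, and all 17 carried the same cDNA accession. Of the 2 sets annotated with Hk1 alone, the brighter one, used for the counts, carried that accession and no other. It is called the single-accession set below, and its profile over the 12 arrays correlated with those of the 15 Rpl17 sets at a median of 0.96 (0.52 to 0.97). A RefSeq set carried 8 accessions, among them the RefSeq transcripts of Hk1, and correlated with the single-accession set at 0.93. Both are given, and the RefSeq set was chosen after values had been seen. The arrays cannot settle which share of the single-accession set's signal is Hk1.

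On the single-accession set, Hk1 (chr10:62268855-62379920) read 12.34, 12.24 and 12.38 in TUM, 12.37, 12.18 and 12.29 in OFF3, 12, 12.12 and 12.11 in OFF6, and 11.70, 11.53 and 11.48 in CTL. On the RefSeq set it read 9.76, 9.89 and 9.77 in TUM, 9.63, 9.54 and 9.42 in OFF3, 9.65, 9.36 and 9.52 in OFF6, and 7.64, 7.75 and 7.72 in CTL. Both put CTL below every tumour array. TUM exceeded CTL 1.68-fold on the single-accession set (0.74 ± 0.08, adjusted p = 1.68e-06) and 4.29-fold on the RefSeq set (2.10 ± 0.08, adjusted p = 1.37e-10). In OFF3 the sets parted: the single-accession set differed from TUM by -0.04 ± 0.08 (adjusted p = 0.8), and the RefSeq set fell by 0.28 ± 0.08 (adjusted p = 0.0219). In OFF6 both fell, by 0.24 (adjusted p = 0.0308) and by 0.30 (adjusted p = 0.0134). The OFF6 call on the single-accession set was lost without TUM replicate 1 or 3 or OFF6 replicate 1 or 3 (adjusted p 0.0526 to 0.119). With the RefSeq set the count of genes called in OFF3 was 6 of 9, with 4 lower.

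**Figure D2:**
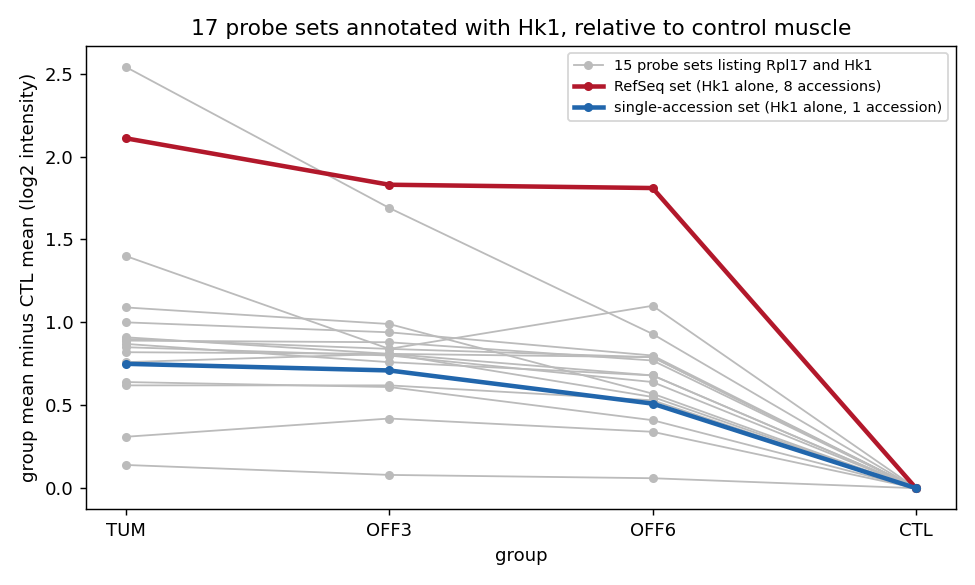
Mean log2 intensity of the 17 probe sets annotated with Hk1, as the difference from their CTL mean, in TUM, OFF3, OFF6 and CTL. Grey lines are the 15 sets that also list Rpl17, blue is the single-accession set and red is the RefSeq set. The blue line starts 0.74 above CTL in TUM, among the grey lines, and the red line starts 2.10 above it.

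Hk2 minus Hk1 within an array was higher in OFF6 than in TUM by 0.54 with the single-accession set and by 0.60 with the RefSeq set (exact two-sided permutation p = 0.1 for each, the smallest possible). In OFF3 it was higher by 0.18 (p = 0.2) and 0.42 (p = 0.1) by the same exact test. Between TUM and CTL it differed by -3.33, a 10-fold unequal change, or by -4.68 with the RefSeq set, a 25.7-fold one. Thus the size of the hexokinase shift depends on the probe set, and its direction did not. Of the other measured hexokinases Adpgk, which uses ADP, fell by 0.51 in OFF3 and 0.49 in OFF6 (adjusted p = 0.000178 and 0.000216) and was 1.69-fold higher in TUM than in CTL. Hk3, a myeloid form, was 1.34-fold higher in TUM than in CTL (adjusted p = 0.00868). Hkdc1 was 1.51-fold lower (adjusted p = 0.00105). Of the 5 hexokinases, 0 rose and 1 fell in OFF3, and 1 rose and 2 fell in OFF6, beside 29.4% and 31.5% of all genes called. The OFF6 count was 1 without TUM replicate 1 or OFF6 replicate 1.

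Pfkfb3 (chr2:11471430-11554071), the form whose kinase activity far exceeds its phosphatase activity, read 7.77, 7.83 and 7.88 in TUM, 8.85, 8.58 and 8.58 in OFF3, 8.23, 8.70 and 8.11 in OFF6, and 11.16, 11.33 and 11.25 in CTL. TUM was lowest on every array. It lay 10.7-fold below CTL (-3.42 ± 0.13, adjusted p = 1.15e-10). OFF3 was 1.79-fold above TUM (0.84 ± 0.13, adjusted p = 0.000333), and OFF6 was 1.44-fold above TUM (0.52 ± 0.13, adjusted p = 0.00795). These rises covered 24.6% and 15.3% of the distance to CTL. OFF6 replicate 2, at 8.70, again fell among the OFF3 values. OFF6 differed from OFF3 by -0.32 ± 0.13 (adjusted p = 0.147) with it and by -0.50 (adjusted p = 0.0016) without it.

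In the list of 9 measured phosphofructokinases, Pfkfb enzymes and fructose bisphosphatases, 4 rose and 1 fell in OFF3, and 3 rose and 1 fell in OFF6, with medians of 0.32 and 0.16, beside 29.4% and 31.5% of all genes called. Without TUM replicate 1 the OFF3 calls were 2 and 1. Pfkm, the muscle phosphofructokinase, rose by 1.01 ± 0.11 in OFF3 and 1.43 ± 0.11 in OFF6 (adjusted p = 2.7e-05 and 1.13e-06) and was 5.84-fold lower in TUM than in CTL. The liver-type Pfkl did the opposite: it fell by 1.51 and 1.40 (adjusted p = 7.76e-06 and 1.17e-05) and was 3.87-fold higher in TUM than in CTL. Pfkp, the platelet type, rose by 0.31 in OFF6 (adjusted p = 0.0221). Pfkfb4 rose by 0.35 in OFF3 (adjusted p = 0.0229). Fbp2, the muscle fructose bisphosphatase, was 14.9-fold lower in TUM than in CTL (adjusted p = 3.02e-12).

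Of the 9 measured enzymes of lower glycolysis, 3 rose and 4 fell in OFF3 (median 0.07), and 4 rose and 3 fell in OFF6 (median 0.17), beside 29.4% and 31.5% of all genes called. Pgam2, the muscle phosphoglycerate mutase, rose by 1.83 ± 0.14 in OFF3 and 2.02 ± 0.14 in OFF6 (adjusted p = 1.11e-06 and 4.13e-07). Pgam1, its non-muscle counterpart, fell by 1.02 and 1.03 (adjusted p = 7.85e-07 and 5.99e-07). Aldoa, the aldolase of muscle, rose by 0.28 and 0.33 (adjusted p = 0.0111 and 0.00392), and Aldoc, the brain form, fell (-2.05 and -1.92, adjusted p = 1.17e-07 and 1.41e-07). The enolases did not follow the same order: Eno2, the neuronal form, rose by 0.29 and 0.25 (adjusted p = 0.0183 and 0.0365), and Eno3, the muscle form, differed by 0.07 and 0.17 (adjusted p = 0.535 and 0.0761). Tpi1, triose phosphate isomerase, rose by 0.33 in OFF6 (adjusted p = 0.0194), and Pgk1, phosphoglycerate kinase, fell by 0.51 and 0.34 (adjusted p = 0.000178 and 0.00289). Between TUM and CTL Pgam1 was 5.51-fold, Aldoc 3.76-fold and Eno2 1.29-fold higher in TUM, and Pgam2 was 8.1-fold, Tpi1 1.98-fold and the pyruvate kinase Pkm 1.88-fold lower in TUM. Fibre markers, of which 9 of 10 rose at each time, moved with Pgam2 and Aldoa, and their part was not tested.

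Ldha (chr7:46842274-46855627) encodes the muscle subunit of lactate dehydrogenase, which favours lactate. It read 12.70, 12.71 and 12.74 in TUM, 12.61, 12.54 and 12.60 in OFF3, 12.73, 12.53 and 12.77 in OFF6, and 13.32, 13.37 and 13.42 in CTL. CTL stood well above every tumour array, the OFF3 arrays lay just below those of TUM, and OFF6 overlapped both. TUM was 1.57-fold below CTL (-0.65 ± 0.07, adjusted p = 1.74e-06). The tumour groups differed little: OFF3 from TUM by -0.14 (95% interval -0.28 to 0.01, adjusted p = 0.168), and OFF6 from TUM by -0.04 (-0.19 to 0.11, adjusted p = 0.702).

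Ldhb (chr6:142490249-142507957) encodes the heart subunit, which favours pyruvate. It read 7.85, 8.05 and 7.89 in TUM, 8.21, 8.22 and 7.97 in OFF3, 8.59, 8.66 and 8.56 in OFF6, and 10.97, 11 and 11.02 in CTL. The OFF6 arrays lay above all TUM and OFF3 arrays, and OFF3 overlapped TUM. TUM was 8.37-fold below CTL (-3.07 ± 0.08, adjusted p = 5.27e-12). OFF3 differed from TUM by 0.20 ± 0.08 (adjusted p = 0.0689), OFF6 rose by 0.68 ± 0.08 (adjusted p = 2.69e-05), and OFF6 exceeded OFF3 by 0.47 ± 0.08 (adjusted p = 0.00458), and by 0.44 without OFF6 replicate 2 (adjusted p = 0.00231). A further probe set for Ldhb, looked at after values had been seen, gave -0.03 (adjusted p = 0.843) for OFF3 and 0.57 (adjusted p = 0.000351) for OFF6 against TUM. Its TUM value was 9.14-fold below CTL.

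Ldha minus Ldhb within an array was 4.40, 4.31 and 4.63 in OFF3 and 4.14, 3.87 and 4.20 in OFF6, against 4.85, 4.66 and 4.84 in TUM, and 2.35, 2.37 and 2.40 in CTL. The balance had shifted towards Ldhb by 0.34 in OFF3 and 0.71 in OFF6, and stood 2.41 further towards Ldha in TUM than in CTL, a 5.32-fold unequal change. Each had p = 0.1 by the exact two-sided permutation test.

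**Figure D3:**
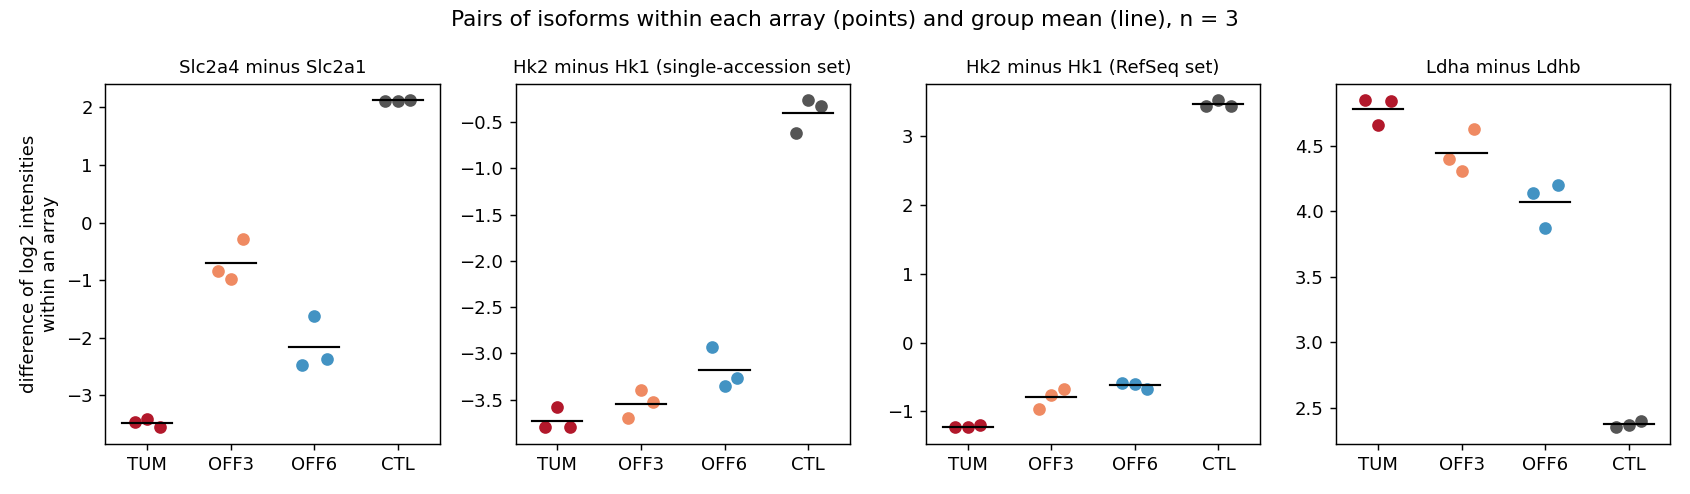
Difference of the log2 intensities of each isoform pair within an array (points) and group mean (line, n = 3) in TUM, OFF3, OFF6 and CTL. The Slc2a4 minus Slc2a1 pair is nearest to CTL in OFF3, and the Ldha minus Ldhb pair is nearest to CTL in OFF6. The height of a panel depends on the probes, so only shifts within a panel can be read.

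Pdk4 (chr6:5483351-5496278), the kinase that fasting and fatty acids induce to shut off pyruvate oxidation, read 10.71, 10.69 and 10.70 in TUM, 10.44, 10.31 and 10.63 in OFF3, 10.79, 10.72 and 10.88 in OFF6, and 12.09, 12.03 and 12.14 in CTL. The OFF3 arrays lay below those of TUM, the OFF6 arrays just above them, and CTL far above all. TUM was 2.61-fold below CTL (-1.39 ± 0.08, adjusted p = 4.83e-09). OFF3 lay below TUM by 0.24 ± 0.08 (adjusted p = 0.0378), and that call was lost without any 1 of the TUM arrays or OFF3 replicates 1 or 2 (adjusted p 0.0811 to 0.169). OFF6 differed from TUM by 0.10 (95% interval -0.07 to 0.27, adjusted p = 0.395). OFF6 exceeded OFF3 by 0.34 ± 0.08 (adjusted p = 0.0208), and without OFF3 replicate 1 or 2 or OFF6 replicate 1 or 3 the adjusted p was 0.0652 to 0.111. Without OFF6 replicate 2 the difference was 0.37 (adjusted p = 0.00651).

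Within the 20 measured genes of lactate and pyruvate handling, Ldha, Ldhb and Pdk4 included, 4 rose and 5 fell in OFF3, 9 rose and 4 fell in OFF6, and 2 were higher and 16 lower in TUM than in CTL, with medians of 0.01, 0.15 and -1.50. Over all genes 29.4%, 31.5% and 76.2% were called, the last made up of 30.3% higher and 45.9% lower. Without TUM replicate 1 or TUM replicate 3 the OFF3 count was 5, with 4 higher and 1 lower. The other kinases of pyruvate dehydrogenase went separate ways. Pdk2, the form of resting muscle, rose by 1.03 ± 0.08 in OFF3 and 1.11 ± 0.08 in OFF6 (adjusted p = 2.03e-06 and 8.6e-07) and was 8.89-fold lower in TUM than in CTL. Pdk3 was 9.2-fold higher in TUM than in CTL (adjusted p = 1.33e-09) and fell by 0.50 in OFF3 (adjusted p = 0.0311). Pdk1, a HIF-1 target, fell by 0.31 in OFF3 (adjusted p = 0.0256). The phosphatase Pdp1, which reactivates the complex, rose by 0.98 and 0.69 (adjusted p = 1.2e-05 and 0.000177). Its partner Pdpr also rose, by 0.55 and 0.67 (adjusted p = 8.22e-06 and 1.22e-06). Pdp2 fell by 0.23 in OFF3 and 0.38 in OFF6 (adjusted p = 0.0465 and 0.00319). Of the lactate carriers, Slc16a1 (MCT1) fell by 0.57 ± 0.06 in OFF3 and 0.35 ± 0.06 in OFF6 (adjusted p = 2.17e-05 and 0.000879). Slc16a3 (MCT4), a HIF-1 target that exports lactate, fell by 0.52 ± 0.12 in OFF6 (adjusted p = 0.00548). Slc16a7 (MCT2) fell by 0.88 in OFF6 (adjusted p = 0.00797) and was 3.89-fold higher in TUM than in CTL.

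The 19 measured genes of fatty acid use and PPAR targets belong in large part to the fasting response, as Pdk4 does. Of these 6 rose and 0 fell in OFF3 (median 0.18), 11 rose and 2 fell in OFF6 (median 0.27), and 2 were higher and 17 lower in TUM than in CTL (median -1.57). Over all genes 13.4% rose in OFF3, 14.9% rose in OFF6 and 45.9% were lower in TUM than in CTL. Without TUM replicate 1 the OFF3 count was 3. Ppargc1a, the coactivator of mitochondrial genes, rose by 1.08 ± 0.15 in OFF3 and 0.91 ± 0.15 in OFF6 (adjusted p = 0.000181 and 0.000561) and was 21.2-fold lower in TUM than in CTL. Ucp3, a mitochondrial carrier of muscle, rose by 0.94 and 1.08 (adjusted p = 4.36e-06 and 1.03e-06). The fatty acid transporter Cd36 rose by 0.35 in OFF3 and 0.41 in OFF6 (adjusted p = 0.00964 and 0.00304). Acadl, an acyl-CoA dehydrogenase, rose by 0.80 in OFF6 (adjusted p = 0.000188). Angptl4, which inhibits lipoprotein lipase and answers to both PPARs and HIF-1, was 3.95-fold higher in TUM than in CTL and fell by 0.59 in OFF6 (adjusted p = 0.00167). Lpl, the lipoprotein lipase itself, fell by 0.61 in OFF6 (adjusted p = 0.00554). Foxo3, a transcription factor of fasting muscle, was 1.3-fold higher in TUM than in CTL (adjusted p = 0.00128). Ppara, the receptor of the fasting response, was 9.09-fold lower in TUM than in CTL (adjusted p = 1.22e-12).

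Among the 11 lists, that of glycogen genes had the highest share of members that rose in OFF3 and in OFF6. Of 14 measured, 11 rose and 0 fell in OFF3, and 10 rose and 1 fell in OFF6, beside 13.4% and 14.9% of all genes higher. Their medians were 0.66 and 0.55, against 0.02 and 0.05 over all genes. In TUM 13 of 14 were lower than in CTL, beside 45.9% of all genes lower, with a median of -2.76 against -0.15 over all genes. Ppp1r3a, the muscle subunit that directs protein phosphatase 1 to glycogen, rose by 1.98 ± 0.11 in OFF3 and 1.77 ± 0.11 in OFF6 (adjusted p = 1.07e-07 and 1.64e-07). Pygm, the muscle phosphorylase that breaks glycogen down, rose by 1.45 and 1.19 (adjusted p = 3.47e-07 and 1.13e-06). Gys1, the synthase, rose by 0.60 ± 0.15 in OFF3 and 1.05 ± 0.15 in OFF6 (adjusted p = 0.00896 and 0.000162). Phkg1, the catalytic subunit of phosphorylase kinase, was 37.4-fold lower in TUM than in CTL. It rose by 1.79 ± 0.20 in OFF3 (adjusted p = 2.32e-05) and, like Slc2a4, was lower in OFF6 than in OFF3 (-1.05 ± 0.20, adjusted p = 0.00852; -1.30 and 7.94e-05 without OFF6 replicate 2). Ppp1r3c, a further targeting subunit, was 21.3-fold lower in TUM than in CTL. Pygb, the brain phosphorylase, was 2.52-fold higher in TUM than in CTL and fell by 0.32 in OFF6 (adjusted p = 0.00823). Summed fibre markers were higher in OFF3 and OFF6 than in TUM over the same arrays, and their part in the glycogen rise was not tested.

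Vegfa (chr17:46016993-46032377), the secreted factor that draws blood vessels and a standard readout of hypoxia, read 9.27, 9.33 and 9.30 in TUM, 8.49, 8.42 and 8.76 in OFF3, 8.83, 8.77 and 8.92 in OFF6, and 10.85, 10.95 and 10.97 in CTL. The 4 groups did not overlap. Over all genes 82.7% had no overlap between TUM and CTL, 48.5% between OFF6 and TUM, and 21.2% between OFF6 and OFF3. Vegfa was 1.67-fold lower in OFF3 than in TUM (-0.74 ± 0.08, adjusted p = 2.73e-05) and 1.37-fold lower in OFF6 than in TUM (-0.46 ± 0.08, adjusted p = 0.00102). TUM was itself 3.09-fold below CTL (-1.63 ± 0.08, adjusted p = 1.73e-09), so withdrawal took the level further from CTL, to 5.16-fold below it in OFF3 and 4.24-fold below it in OFF6. OFF6 differed from OFF3 by 0.28 ± 0.08 (adjusted p = 0.0504), and by 0.32 (adjusted p = 0.0218) without OFF6 replicate 2. Slc2a1, which also fell, moved towards CTL.

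**Figure D4:**
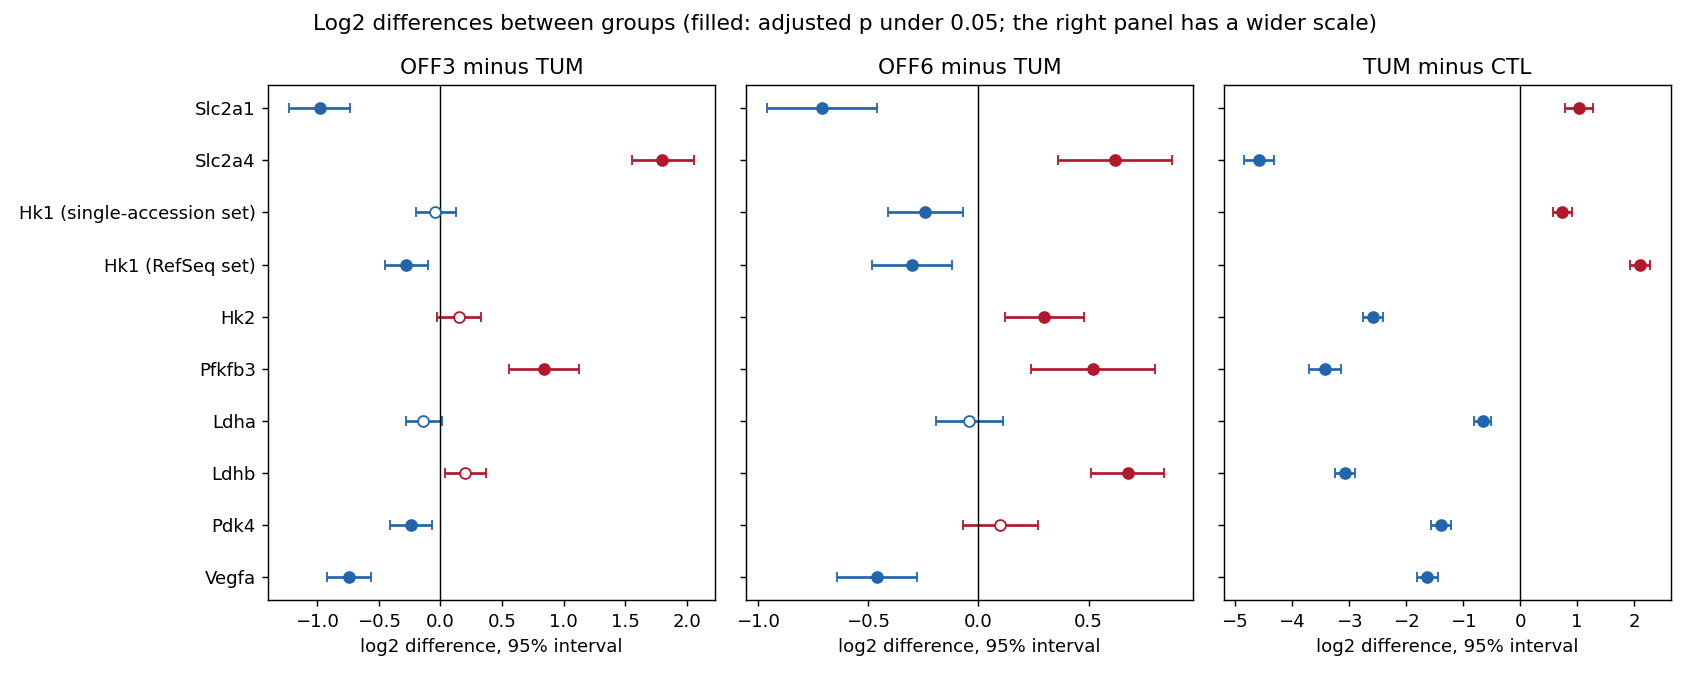
Log2 differences with 95% intervals for OFF3 minus TUM, OFF6 minus TUM and TUM minus CTL. Filled points have an adjusted p under 0.05, red is higher and blue is lower. Slc2a1 and Vegfa lie left of 0 and Slc2a4 and Pfkfb3 right of 0 in both withdrawal panels, and TUM minus CTL, on a wider scale, runs from -4.58 for Slc2a4 to 2.10 for Hk1 on the RefSeq set.

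Of 10 genes for VEGF ligands and receptors, 3 rose and 2 fell in OFF3 (median -0.04), 2 rose and 3 fell in OFF6 (median -0.15), and 3 were higher and 5 lower in TUM than in CTL. Over all genes 29.4%, 31.5% and 76.2% were called, so the TUM count is near the background. The ligand Vegfc, which acts on lymphatic vessels, fell beside Vegfa, by 0.38 in OFF3 and 0.56 in OFF6 (adjusted p = 0.0108 and 0.000768), but was 3.18-fold higher in TUM than in CTL. Vegfb was 3.52-fold lower in TUM than in CTL (adjusted p = 1.47e-10). The receptors Flt4 (0.80 and 0.88, adjusted p = 0.000673 and 0.000305) and Kdr (0.52 and 0.40, adjusted p = 0.000433 and 0.00218) rose, and Flt1 rose by 0.22 in OFF3 (adjusted p = 0.0183). Nrp1 and Nrp2 are coreceptors. Nrp1 was 1.72-fold higher in TUM than in CTL (adjusted p = 2.35e-05). Nrp2 was 4.17-fold higher in TUM than in CTL and fell by 0.82 in OFF6 (adjusted p = 0.000326). Endothelial markers rose beside the receptors: their summed level was 5690 to 6156 in OFF3, against 3851 to 3924 in TUM. In OFF6 these markers summed to 4398, 5294 and 4415 (replicates 1 to 3). All 8 rose in OFF3 and 5 in OFF6. Their part in the receptor values was not tested.

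A further 21 HIF targets outside the 10 genes were set beside them, of which Aldoc, Pgk1 and Pdk1 are also in other lists. In OFF3 2 rose and 10 fell, beside 13.4% higher and 16% lower over all genes, with a median of -0.23. In OFF6 0 rose and 9 fell, beside 14.9% and 16.6%, with a median of -0.17. Besides Aldoc, Ero1a, an oxidase of the endoplasmic reticulum, fell by 1.22 ± 0.11 in OFF3 and 0.86 ± 0.11 in OFF6 (adjusted p = 3.29e-06 and 4.63e-05). The collagen hydroxylase P4ha1 fell by 0.71 ± 0.11 in OFF3 and 0.53 ± 0.11 in OFF6 (adjusted p = 0.00031 and 0.00231). Tfrc, the transferrin receptor, which cell division also raises, fell by 1.00 ± 0.14 in OFF3 (adjusted p = 0.000162) and stood 0.84 higher in OFF6 than in OFF3 (adjusted p = 0.00472; 1.07 and 2.64e-07 without OFF6 replicate 2). Hmox1, a haem oxygenase of macrophages and of oxidative stress, and Ddit4, an inhibitor of mTORC1, rose by 0.48 and 0.43 in OFF3 (adjusted p = 0.00231 and 0.00488).

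In TUM against CTL the HIF targets did not move as a block: 10 were higher and 6 lower, with a median of 0.18. Over all genes 76.2% were called, 30.3% higher and 45.9% lower, with a median of -0.15, so the number called is near the background. The collagen crosslinker Lox was 13.1-fold higher (adjusted p = 4.37e-12) and Ero1a 3.85-fold higher (adjusted p = 3.14e-09). The mitophagy receptor Bnip3 was 4.02-fold lower (adjusted p = 5.88e-10), and Pdk1 and Mxi1, an antagonist of Myc, were 3.12-fold and 3.07-fold lower (adjusted p = 4.68e-09 and 4.61e-09). Proliferation markers, at 1878 to 2832 in OFF3 and 9577 to 9884 in TUM, fell over the same arrays as these targets, and their part was not tested.

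Among 10 genes that sense oxygen, 2 rose and 1 fell in OFF3 and 2 rose and 0 fell in OFF6, with medians of 0.12 and 0.14. Beside them 29.4% and 31.5% of all genes were called, so the OFF3 count is near the background and the OFF6 count below it. Without OFF6 replicate 2 the OFF3 count was 5, and without CTL replicate 3, any TUM array or OFF3 replicate 2 the OFF6 count was 1. Hif1a, the regulated subunit of HIF-1, was 2.45-fold higher in TUM than in CTL (1.29 ± 0.07, adjusted p = 2.97e-09). Epas1, which encodes the endothelial HIF-2 subunit, was 4.36-fold lower in TUM than in CTL and rose by 0.69 ± 0.10 in OFF3 and 0.29 ± 0.10 in OFF6 (adjusted p = 0.00017 and 0.0403). Egln1, the hydroxylase that marks HIF for destruction, was 3.39-fold lower in TUM than in CTL and fell by 0.31 in OFF3 (adjusted p = 0.0043). Hif1an, the asparagine hydroxylase that blocks HIF activity, was 4.66-fold lower in TUM than in CTL and rose by 0.53 in OFF6 (adjusted p = 0.00126). Vhl, the ligase subunit that binds hydroxylated HIF, was 1.62-fold higher in TUM than in CTL (adjusted p = 0.000122), and Egln2 rose by 0.19 in OFF3 (adjusted p = 0.0433). HIF proteins are regulated mainly by stability, which RNA does not show.

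**Figure D5:**
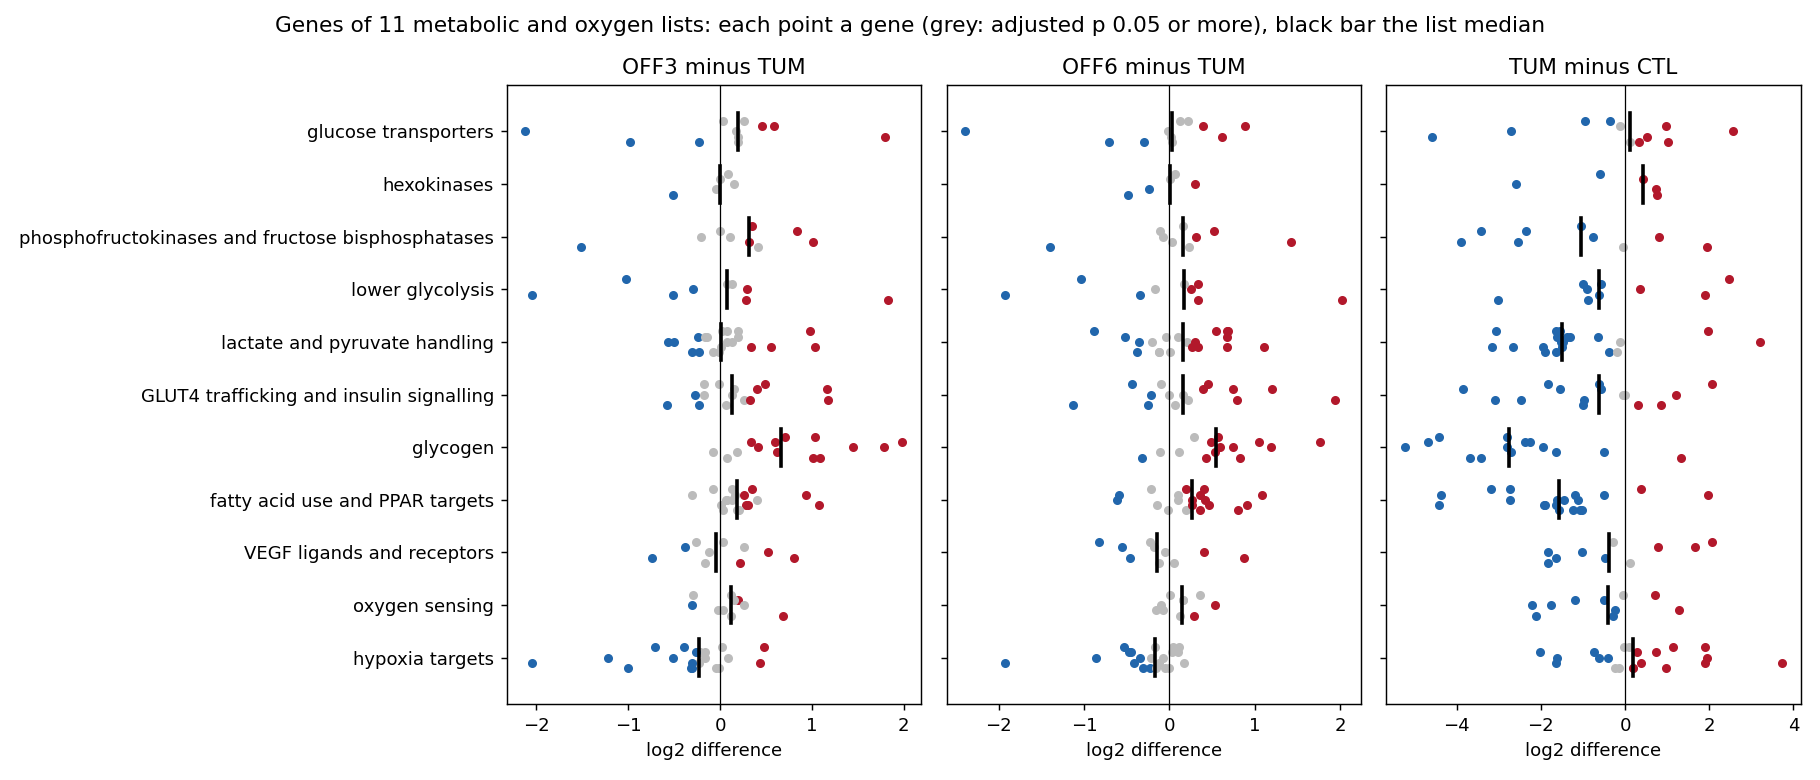
Log2 differences of the genes of 11 lists (points) and list medians (black bars) for OFF3 minus TUM, OFF6 minus TUM and TUM minus CTL. Red points rose and blue points fell, and grey points were not called. Glycogen genes sit mostly right of 0 after withdrawal (medians 0.66 and 0.55) and left of it in TUM minus CTL (-2.76), and hypoxia targets sit mostly left of 0 after withdrawal (-0.23 and -0.17).

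Between OFF6 and OFF3, 3 of the 9 measured genes were called: Ldhb and Pdk4 were higher and Slc2a4 was lower, where 10.4% of all genes were called, 6.05% higher and 4.38% lower. Without OFF6 replicate 2 the count was 6, 4 higher and 2 lower, with Slc2a1, Vegfa and Pfkfb3 added. In OFF6 against TUM the count was 7 with and without it. Over all genes the number called was 2080 with it and 4874 without it.

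Against CTL, 8 of 9 were called in OFF3, 1 higher and 7 lower, and 9 of 9 in OFF6, 2 higher and 7 lower, beside 69.8% of all genes in OFF3 (28.4% higher, 41.4% lower) and 64.2% in OFF6 (28.1% higher, 36.1% lower). Slc2a4, Hk2, Pfkfb3, Ldha, Ldhb, Pdk4 and Vegfa were still below CTL at both times, by 1.73-fold (Ldha) to 7.27-fold (Ldhb) in OFF3 and by 1.62-fold (Ldha) to 15.5-fold (Slc2a4) in OFF6. The change after withdrawal covered 6.66% of the distance to CTL for Ldhb in OFF3 and 22% in OFF6, against 5.71% and 11.8% for Hk2.

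The genes most like each member over the 12 arrays, by Pearson's r of log2 intensity, are given as a description, since all arrays share the contrast of tumour and muscle. Slc2a4 lay closest to Mylk2, the kinase of skeletal muscle myosin light chain (0.996), and Phkg1 (0.995). Slc2a1 lay closest to Dph2 (0.992) and Slc39a13 (0.991), Hk2 to Stk40 and Mcrip2 (0.998 each), Pfkfb3 to Mtus1 (0.999) and Cpe (0.998), Ldha to Syngr2 (0.994) and Hccs (0.993), Ldhb to Nfs1 (0.998) and Dcun1d2 (0.996), Pdk4 to Alpk2 (0.996) and Sdr39u1 (0.995), and Vegfa to Oxsr1 (0.994) and Adipor2 (0.993). On the single-accession set Hk1 lay closest to Snrpe (0.988) and Man1a2 (0.985), and on the RefSeq set to Ahnak2 (0.998) and Rad21 (0.997).

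Over the 9 tumour arrays alone, which leave out that contrast, the nearest genes were mostly others. Pfkfb3 kept Mtus1 (0.992), next to Rgs4 (0.985). Slc2a1 was nearest to Alg8 (0.997) and Tomm40 (0.994), a mitochondrial import pore, and Slc2a4 to Zfp467 (0.987) and Slc37a4 (0.985), the glucose 6-phosphate carrier. For Hk2 they were Idi2 (0.975) and Kcnj12 (0.972), for Ldha Abcf2 (0.991) and Popdc3 (0.971), for Ldhb Prr15 (0.973) and Gpr31b (0.971), for Pdk4 Psmb4 (0.967) and E2f6 (0.962), and for Vegfa Bud23 (0.983) and Pcyt2 (0.975). Hk1 was nearest to Prdx1 (0.984) and Gdpd3 (0.97) on the single-accession set, and to Fam160b1 and Tmtc4 (0.989 each) on the RefSeq set. Among the members themselves, over the same 9 arrays, Slc2a1 and Vegfa ran together (0.89). Both ran against Pfkfb3 (-0.94 and -0.92) and Slc2a4 (-0.89 and -0.86). Ldha ran with Slc2a1 and Vegfa (0.74 and 0.70) and against Pfkfb3 and Slc2a4 (-0.80 and -0.72). These 9 arrays still share the contrast of TUM with OFF3 and OFF6. All r over them can therefore restate the group differences given above, and they are a description only.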

How the data were processed

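The deposited values are probe set intensities on a linear scale, made by the authors with RMA per the submitters' processing notes; its version is not given in the sources used here. RMA corrects background, normalises arrays to one distribution and summarises probes, which can compress differences of dim and of very bright probe sets. Per the labels' protocols, RNA was isolated by Trizol, cleaned on RNeasy columns and copied into biotin-labelled cRNA. Scanner files and Pfkfb1 are not analysed here.

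Of 34760 probe sets, 21640 carried 1 gene symbol, 1321 several and 11799 none; only those with 1 were used. For the 954 genes with several sets, the set of highest mean was used, with no filter on low values, which left 19937 genes. Symbols were checked through gene identifiers (21553 of 21640 matched). The log2 of the intensity was taken from the deposited values, and limma 3.58.1 (in R 4.3.3, tables read by version 1.17.8 of data.table) fitted 4 group means to the 12 arrays together by lmFit and eBayes; plots were drawn with matplotlib 3.10.9 in Python 3.11.15. Tests were two-sided over 6 comparisons. The median standard error of a difference was 0.0863, and the number of arrays limits the precision. Comparisons with TUM use the same 3 TUM arrays and are not independent.

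The members, the 11 gene lists (140 of 151 genes measured) and the 8 marker lists (56 of 62 measured) were chosen with earlier results of these data known. Named from each list are the called genes with the 3 largest rises and the 3 largest falls in OFF3 minus TUM, OFF6 minus TUM and TUM minus CTL. Other genes, marker genes among them, were chosen after their values were seen. For likeness, the 2 nearest genes are named, predicted genes left out.

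No arrays were duplicates (highest correlation 0.9989). Replicate numbers did not pair the arrays: deviations from group means correlated at -0.39 to 0.25 between same-numbered arrays (18 pairs, median -0.03) and at -0.44 to 0.46 between others. Tested on simulated data of 19937 genes for OFF3 minus TUM, the fit found 82.1%, 94% and 100% of 1.5-, 2- and 4-fold changes. Of these 0 were in the opposite direction, and 4.66% of its calls were false. The simulation gave each gene independent noise and changed only 67, 67 and 66 genes by these folds. In the arrays 29.4% of genes were called in that comparison, so these shares need not hold for the real calls. The alternatives were other probe set rules, filters, scalings, variance models and thresholds, array weights, a replicate block, and leaving out each array.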

Additional observations from a re-analysis of the deposited data

How the results depend on the processing

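Over 29 alternatives, 2 of them chosen after seeing the data (other probe sets for Hk1 and Ldhb), the 54 differences of members gave 1566 values, of which 1485 kept their side of the threshold, 55 lost the call (20 of these under a required fold over 1.5), and 26 gained it. In 10 of these values the sign changed, all in differences that were not called: Ldhb in OFF3 minus TUM (-0.03), Slc2a1 in OFF3 minus CTL (-0.15 and -0.01), Ldha in OFF6 minus TUM (0.01 to 0.04) and Hk1 in OFF3 minus TUM (0.01 and 0.02). Genes above the median level gave 8401 calls for TUM minus CTL, 8165 for OFF3 minus CTL and 7923 for OFF6 minus CTL, fewer genes being tested, and all probe sets gave 23072 for TUM minus CTL. Array weights gave 11175 calls (OFF3 minus TUM), 10545 (OFF6 minus TUM) and 8424 (OFF6 minus OFF3), with 9 and 7 members in the first and last of these; the cause was not tested. With only the 6 arrays compared, OFF6 minus OFF3 had 30 genes and 1 member, and an adjusted p under 0.01 left 467 genes there. A required fold over 1.5 left 725, 916 and 13 genes and 1, 0 and 0 members for OFF3 minus TUM, OFF6 minus TUM and OFF6 minus OFF3, and 5489, 4616 and 4166 genes for TUM, OFF3 and OFF6 minus CTL; limma without that fold called 7 members for OFF6 minus TUM, and 3 for OFF6 minus OFF3, where 4 more had an unadjusted p under 0.05.

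Leaving out 1 array gave 452 to 4874 genes and 2 to 6 members for OFF6 minus OFF3. Centring arrays on their upper quartile shifted the median of all genes by -0.24 for TUM minus CTL, -0.20 for OFF3 minus CTL and -0.19 for OFF6 minus CTL. The share of calls that were higher was then 27.5%, 26.5% and 27.3%, against 39.7%, 40.7% and 43.8%. For OFF6 minus OFF3, median centring gave 71.6% against 58%. In OFF3 minus TUM, centring on the upper quartile and quantile normalisation dropped Pdk4 (adjusted p = 0.119 and 0.0932) and added Ldhb (0.0257 and 0.0286). The shifts of isoform pairs kept their sign in every alternative in which they were recomputed.

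Since the numbers pair no arrays, the replicate block is an alternative only: it gave 5 members for OFF3 minus TUM, 7 for OFF6 minus TUM and 4 for OFF6 minus OFF3, Vegfa being added at an adjusted p of 0.0495, and it changed no other call of a member.

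Exact tests of 3 arrays against 3 cannot give a p under 0.1. Saturation of bright probes and loss of signal near background were not tested.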
